A study of Mus musculus with 6 samples.

Results

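Fezf1 and Fezf2 are a pair of related zinc-finger genes of the mouse, and they were taken by symbol, with every probe set that names either of them. The array holds 2 such probe sets, 1 for each gene, among 19938 genes with a symbol of their own. The cells came from the main olfactory epithelium of embryos on a C57BL/6 background at E18.5, sorted by EGFP that the targeted Fezf1 allele carries under the Fezf1 promoter. One set of embryos was Fezf1-/-, with both alleles targeted, and was set against Fezf1+/- embryos with 1 targeted allele, 3 arrays of each. All 6 arrays therefore come from cells with at least 1 targeted allele, and wild-type or EGFP-negative cells were not analysed here. Because the sort follows the Fezf1 promoter, it selects for cells in which that promoter is or was active, whichever genotype they have. The purity of the sorted cells was not tested, and some arrays held signal of genes of other tissues, as described below.

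Both genes encode transcription factors with C2H2 zinc fingers and a short repressor motif that binds Groucho (TLE) co-repressors. In the developing forebrain they act together, and there they repress Hes5, the Notch effector that holds progenitors in an undifferentiated state. In the nose, Fezf1 is needed for olfactory axons to reach the olfactory bulb and for the bulb to form its layers, while Fezf2 is best known for specifying the corticospinal neurons of the deep cortical layers. The first comparison checks the genotype, and the second asks whether the signal of the paralogue is higher where Fezf1 is missing.

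The sequence before the annotated start of each gene is shown because the EGFP sort rests on the Fezf1 promoter, and the Fezf2 sequence allows a comparison. The windows are the 250 bases before the RefSeq start in GRCm38.p6, at chr6:23248265-23248514 on the minus strand for Fezf1 and at chr14:12345866-12346115 on the minus strand for Fezf2. Capitals mark the CCAAT box, searched as CCAAT on both strands, so that it also appears as ATTGG.
Fezf1: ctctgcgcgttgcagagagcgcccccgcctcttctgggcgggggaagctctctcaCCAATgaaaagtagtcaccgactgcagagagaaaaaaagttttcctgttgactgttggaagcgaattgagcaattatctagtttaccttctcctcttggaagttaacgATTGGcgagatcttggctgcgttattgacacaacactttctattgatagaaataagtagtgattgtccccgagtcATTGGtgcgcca
Fezf2: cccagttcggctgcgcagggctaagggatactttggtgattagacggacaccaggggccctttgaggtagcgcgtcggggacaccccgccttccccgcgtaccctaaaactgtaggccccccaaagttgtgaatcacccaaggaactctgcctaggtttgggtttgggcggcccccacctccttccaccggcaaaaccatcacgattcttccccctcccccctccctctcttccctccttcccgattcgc
The Fezf1 window held 3 CCAAT boxes, which began 195, 87 and 12 bases before the start, and the Fezf2 window held 0. A CCAAT box was present in 33.8% of 32851 such windows in the RefSeq table. Neither window held an E-box (CANNTG, in 66.2% of windows), a TATA box (TATAAA, 12.4%) or the homeodomain site TAATTA (4.8%), each searched on both strands. No marked site overlapped another motif. The Fezf1 window had a GC content of 47.6% and the Fezf2 window 61.2%, with a median of 52.4% over all windows. RefSeq gives each gene 2 transcripts, and both windows lie inside the span of the longer gene model, so other start sites may be in use. Which stretch of the Fezf1 promoter the targeted allele keeps was not stated in the labels.

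The arrays differed in ways the genotype labels do not name. Fezf1-/- replicate 1 correlated with the other arrays at 0.905 to 0.935 across genes, while the other 5 correlated with each other at 0.975 to 0.995. The 6 mesenchyme and bone markers summed to 12428 linear signal units on Fezf1-/- replicate 1 and to 1154 and 648 on Fezf1-/- replicates 2 and 3, against 484 to 1578 on the Fezf1+/- arrays. The sum on replicate 1 rested on Col1a1, Col1a2, Col3a1 and Postn, whereas the bone markers Sp7 and Ibsp had log2 signals of 5.80 and 4.38 there. The 5 myeloid markers summed to 2292 on that array, to 281 and 273 on the other Fezf1-/- arrays, and to between 266 and 432 on the Fezf1+/- arrays. The 4 measured ensheathing glia markers summed to 4198 on it, to 410 and 392 on the other Fezf1-/- arrays, and to between 254 and 483 on the Fezf1+/- arrays. That sum rested mostly on Fabp7, at 11.90, while Ngfr was at 5.94. Fezf1+/- replicate 2 stood apart in some genes of the eye, with the lens gene Cryaa at 11.42 there and between 5.18 and 5.52 on the other 5 arrays, whereas the rod gene Gnat1 was lowest there, at 4.84. The 8 markers of mature olfactory neurons had medians from 8.02 to 9.77 on the Fezf1-/- arrays and from 10.18 to 10.84 on the Fezf1+/- arrays, all above the upper quartile of their array. As a list, the markers of the labelled source were thus high in both genotypes, but not each of them was. Cnga4 stood at 5.46, 6.66 and 6.92 on Fezf1-/- replicates 1, 2 and 3, under the upper quartile of each array. On replicate 1, Gng13 (6.71), Gnal (7.18) and Adcy3 (7.63) were also under its upper quartile of 7.67. The summed signal of the 8 markers was 2429 to 8420 in Fezf1-/- cells and 12458 to 17562 in Fezf1+/- cells. All 8 differences were negative with all 6 arrays, while without Fezf1-/- replicate 1 that of Rtp1 was 0.09. By limma 0 of 8 were called, where 0.456% of all genes were called lower, and 6 were lower with an unadjusted p under 0.05, as were 5.25% of all genes. Without Fezf1-/- replicate 1, where 1.67% of all genes were called lower, 3 of the 8 fell: Omp by 1.12 (adjusted p = 0.00702), Stoml3 by 1.17 (adjusted p = 0.0243) and Adcy3 by 0.93 (adjusted p = 0.0432). The 6 immature neuron markers summed to 10434, 24852 and 24937 on Fezf1-/- replicates 1, 2 and 3, and to between 19011 and 21798 on the Fezf1+/- arrays. By limma 0 of these 6 were called in either fit. Without Fezf1-/- replicate 1, 5 of them were higher with an unadjusted p under 0.05, against 7.63% of all genes. Of 3 measured vomeronasal markers, Gnai2 rose by 1.17 (SE 0.12, adjusted p = 0.0201), where 0.0953% of all genes were called higher. Vmn2r1 differed by 2.15 (adjusted p = 0.111) and Gnao1 by -0.21 (adjusted p = 0.861). Without Fezf1-/- replicate 1, Gnai2 at 1.13 (adjusted p = 0.0076) and Vmn2r1 at 2.46 (adjusted p = 0.00995) were called, where 0.993% of all genes were called higher. Gnao1 differed by 0.23 there and was not called. Gnai2 was also called without Fezf1+/- replicate 2 (adjusted p = 0.041), but not when any other single array was left out. In bulk RNA, fewer cells of a type and less RNA per cell cannot be told apart.

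Fezf1 signal was close to the middle of the array in Fezf1-/- cells and near its top in Fezf1+/- cells. Its log2 signal was 5.56, 5.92 and 6.28 on Fezf1-/- replicates 1, 2 and 3, against 11.25, 11.12 and 11.30 on the Fezf1+/- replicates. Every Fezf1-/- value lay below every Fezf1+/- value, and the gap between the nearest pair was 4.84 log2 units, far more than the range of 0.72 within Fezf1-/- and 0.18 within Fezf1+/- arrays. The mean was 5.92 ± 0.36 in Fezf1-/- and 11.23 ± 0.09 in Fezf1+/- cells (SD, n = 3 each). The difference was -5.31 log2 units (95% interval -5.77 to -4.84, adjusted p = 0.000755), a 39.6-fold lower signal with an interval of 28.7 to 54.7. Fezf1 was thereby the 1 called gene of the pair, where 0.552% of all genes tested were called and 0.456% were called lower (adjusted p under 0.05). It had the smallest p of the 19938 genes and the fifth lowest difference.

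Set against each array's own probe sets, 43.7%, 50.6% and 55.7% lay below Fezf1 on Fezf1-/- replicates 1, 2 and 3, and 98.1%, 97.7% and 98.0% on Fezf1+/- replicates 1, 2 and 3. In Fezf1-/- cells the gene thus sat between 0.39 log2 units under and 0.38 over the array median. In Fezf1+/- cells it exceeded the upper quartile by 3.44 to 3.57, and 191 genes, Fezf1 included, had a Fezf1+/- mean as high or higher. The Fezf1 value of replicate 1, the array that stood apart, was the lowest of the 3 Fezf1-/- values. Without that array the difference was -5.13 (SE 0.13, adjusted p = 9e-05). Mature neuron markers were lower on the same arrays as Fezf1, and their part in its difference was not tested.

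The signal left in Fezf1-/- cells was set beside 27 measured genes that are characteristic of other organs, such as the albumin gene Alb, the glucagon gene Gcg and the protamine gene Prm1. On Fezf1-/- arrays the medians of these genes were 4.83, 4.86 and 4.89, and 23, 27 and 27 of the 27 lay below Fezf1 on replicates 1, 2 and 3. The Fezf1 probe set in Fezf1-/- cells was therefore above most of this list, although each probe set has a baseline of its own and signals of different probe sets do not compare amounts. Where the probes lie relative to the targeted part of the gene was not stated in the labels, and the origin of the remaining signal was not tested. Scanner values were not used here either, so the fold depends on the authors' background estimate at its low end.

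**Figure D1:**
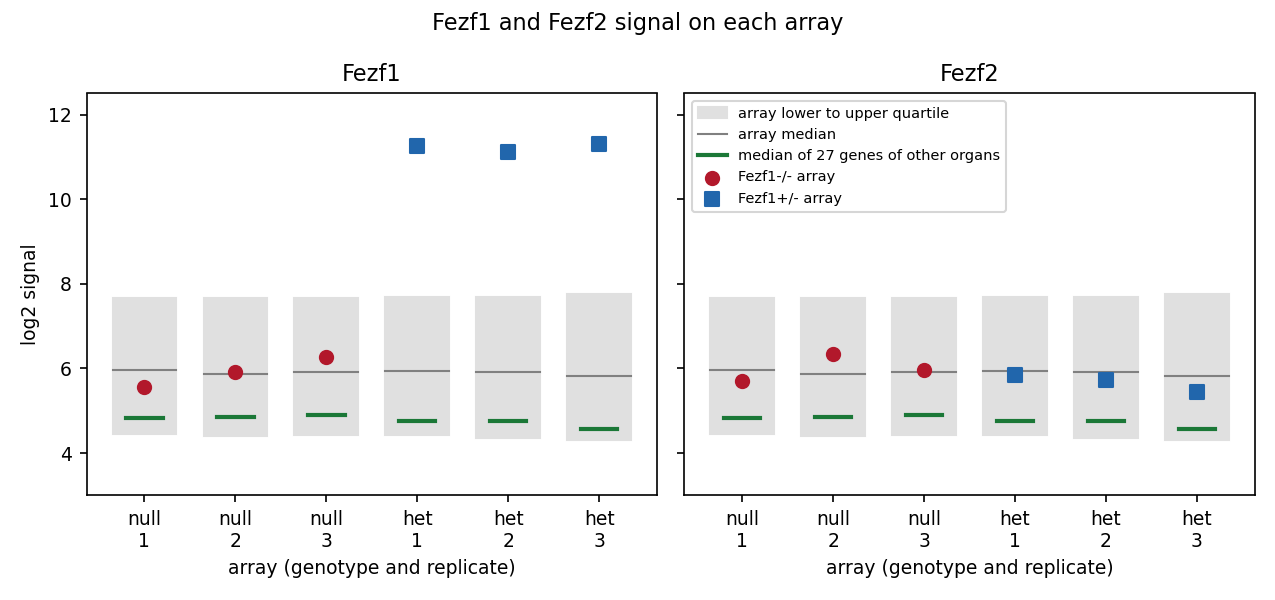
Log2 signal (y axis) of Fezf1 (left) and Fezf2 (right) on each array (x axis), Fezf1-/- as red circles and Fezf1+/- as blue squares, with the array's lower to upper quartile (grey), its median (grey line) and the median of 27 genes of other organs (green line). Fezf1 lies at 5.56 to 6.28 on the Fezf1-/- arrays and at 11.12 to 11.30 on the Fezf1+/- arrays, and Fezf2 stays between 5.45 and 6.34 on all 6.

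Fezf2, the paralogue, had a mid-array signal in both genotypes and did not pass the test. It stood at 5.70, 6.34 and 5.96 on Fezf1-/- replicates 1, 2 and 3, against 5.84, 5.73 and 5.45 on the Fezf1+/- replicates. The groups overlapped, since Fezf1-/- replicate 1 was lower than Fezf1+/- replicates 1 and 2, and the highest value was that of Fezf1-/- replicate 2. The mean was 6.00 ± 0.32 in Fezf1-/- and 5.67 ± 0.20 in Fezf1+/- cells (SD, n = 3 each), and Fezf1-/- cells differed by 0.33 (SE 0.19, 95% interval -0.14 to 0.80, adjusted p = 0.647). On the linear scale this was a ratio of 1.26 with an interval of 0.91 to 1.75, so these arrays could not separate a rise of up to that size from none. A difference as high or higher was found in 1657 of the 19938 genes.

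The Fezf2 value depended on single arrays. Without Fezf1-/- replicate 1 the difference was 0.48 with an interval of 0.10 to 0.87, and the adjusted p was 0.216. Without Fezf1-/- replicate 2 it was 0.16, with an interval of -0.27 to 0.59. Between 46.0% and 57.0% of an array's probe sets lay below Fezf2 on the Fezf1-/- arrays, and between 44.5% and 48.4% on the Fezf1+/- arrays. Of the 27 genes of other organs, 23, 27 and 26 lay below it on Fezf1-/- replicates 1, 2 and 3, and 26, 21 and 23 on the Fezf1+/- replicates. Fezf2 thus stood above most of the list in both genotypes, as Fezf1 did in Fezf1-/- cells.

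Both members varied more within groups than a typical gene. The pooled SD was 0.26 for Fezf1 and 0.27 for Fezf2, against a median of 0.17 over all genes, and 71.1% and 71.7% of genes varied less. For Fezf1 this spread came from the Fezf1-/- arrays, whose SD was larger than that of 75.9% of genes, whereas 31.4% of genes had a smaller SD than Fezf1 among the Fezf1+/- arrays. Fezf2 varied more than 72.3% of genes among the Fezf1-/- arrays and more than 75.5% among the Fezf1+/- arrays.

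**Figure D2:**
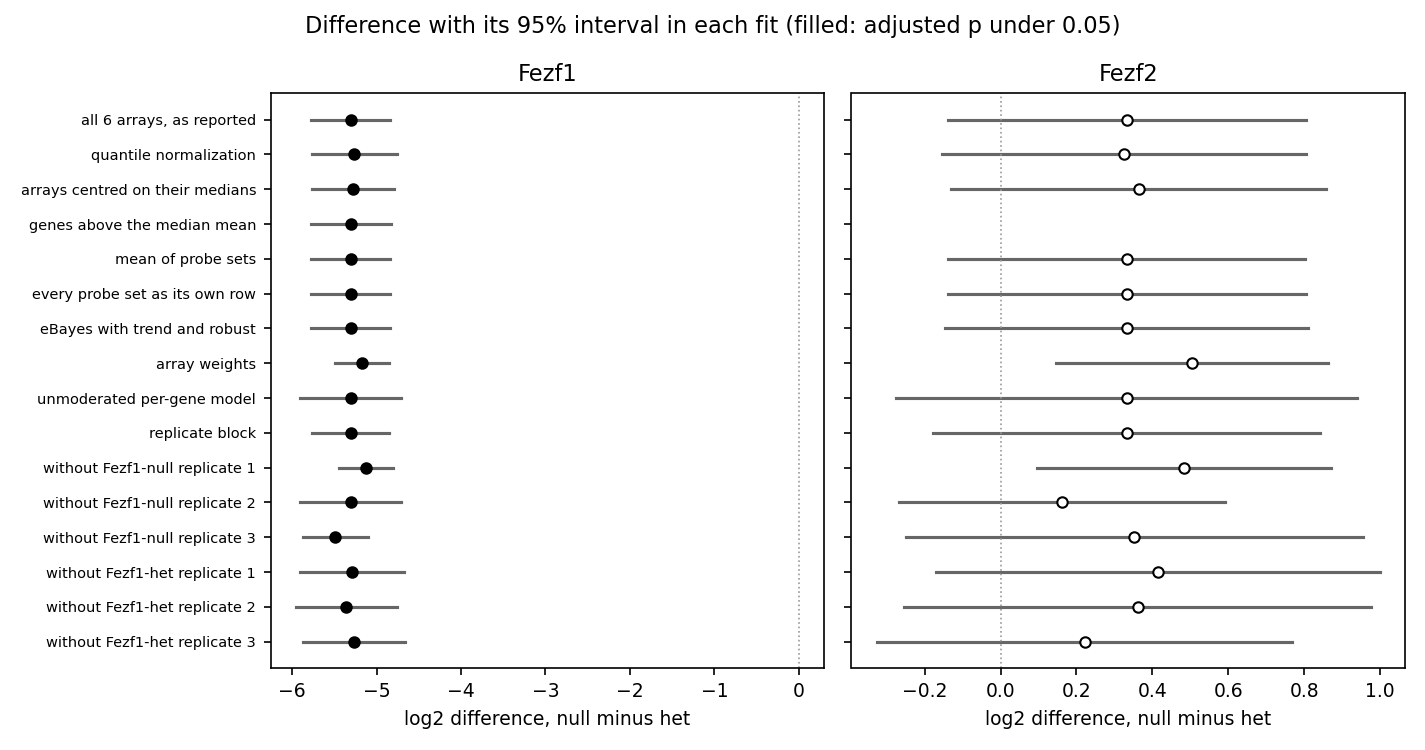
Log2 difference, Fezf1-/- minus Fezf1+/- (x axis), with its 95% interval for Fezf1 (left) and Fezf2 (right) in each fit (y axis), filled where the adjusted p was under 0.05. Fezf1 lies between -5.49 and -5.13 in every fit and is filled in all of them, while Fezf2 lies between 0.16 and 0.51 and is open in each fit that gave it a value, and the panels have different x scales.

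The 5 genes whose centred values were most like those of Fezf1 were odorant receptors and genes for secreted or uncharacterised proteins. Likeness was the root mean square difference between 2 genes over the 6 arrays after each was centred on its own mean, and the values were 0.35 for Olfr727, 0.54 for Olfr1208, 0.57 for Lcn11, 0.67 for BC051076 and 0.73 for Olfr726. Olfr727, Olfr1208 and Olfr726 encode odorant receptors, and Lcn11 a lipocalin, of the family of small carrier proteins. Olfr727 stood at 3.57, 3.71 and 3.35 on the Fezf1-/- arrays and at 8.70, 8.91 and 9.39 on the Fezf1+/- arrays. Lcn11 stood at 4.53, 5.08 and 5.07 on the Fezf1-/- arrays and at 10.38, 11.52 and 11.23 on the Fezf1+/- arrays. Among the Fezf1+/- arrays, Lcn11 and BC051076 were lowest on replicate 1, and Fezf1 was lowest on replicate 2. As these genes were chosen for their likeness, their differences are a description only, from -6.34 for BC051076 to -3.87 for Olfr726.

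**Figure D3:**
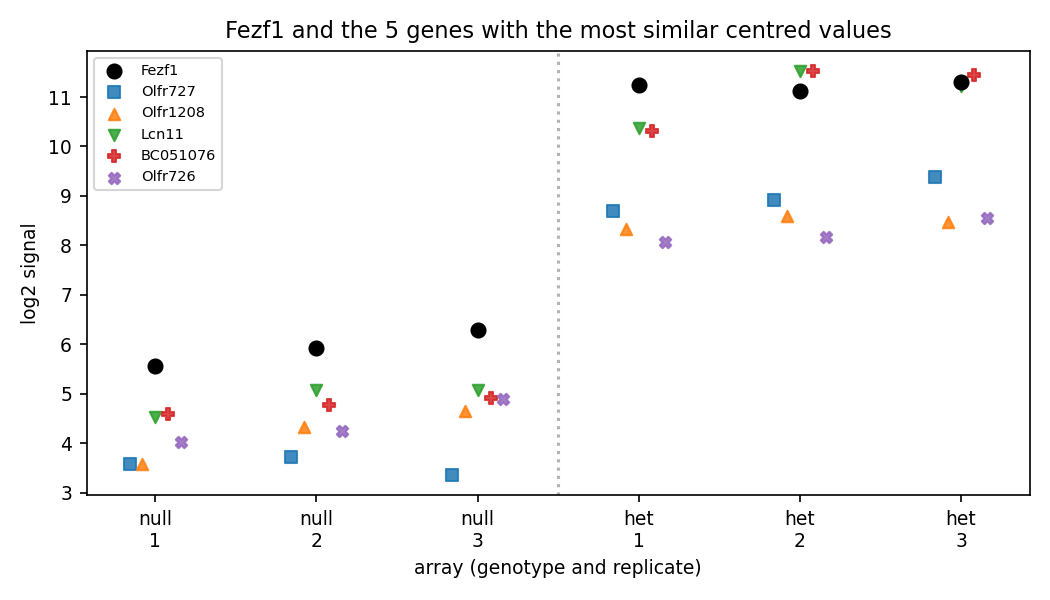
Log2 signal (y axis) of Fezf1 and of the 5 genes with the most similar centred values on each array (x axis), Fezf1-/- arrays to the left of the dotted line and Fezf1+/- arrays to the right. All 6 genes are lower on the 3 Fezf1-/- arrays than on any Fezf1+/- array, and Fezf1 is the highest of them in Fezf1-/- cells.

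The genes that flank the members were examined because the targeted allele alters the Fezf1 locus, and because the loci resemble each other: Cadps2 next to Fezf1 and Cadps next to Fezf2 encode related proteins of vesicle release, and Ptprz1 and Ptprg encode related receptor tyrosine phosphatases. The 5 nearest measured protein-coding genes on each side were taken in RefSeq gene order. On chromosome 6, 0 of 10 neighbours of Fezf1 were called by limma (background 0.552%), with a median difference of 0.12 against 0.02 over all genes. With an unadjusted p under 0.05, 1 was lower and 0 were higher, against 5.25% and 4.23% of all genes. Aass, the neighbour on one side, which encodes an enzyme of lysine breakdown, stood at 5.58, 5.08 and 4.91 on the Fezf1-/- arrays and at 5.65, 5.87 and 5.63 on the Fezf1+/- arrays. These groups did not overlap, as in the 8.77% of all genes whose Fezf1-/- values all lay lower, and the difference was -0.53 (SE 0.19, adjusted p = 0.464). Without Fezf1-/- replicate 1 it was -0.72 (SE 0.12, adjusted p = 0.0276), the 1 neighbour called there, where 2.66% of genes were called and 1.67% were called lower. The groups also did not overlap for Slc13a1 (difference -0.07, adjusted p = 0.781) and, with Fezf1-/- values higher, for Tas2r118 (0.09, adjusted p = 0.745). All Fezf1-/- values lay higher in 9.72% of all genes. Cadps2, the neighbour on the other side, was measured at 7.46 ± 0.17 in Fezf1-/- and 7.36 ± 0.02 in Fezf1+/- cells (SD, n = 3 each; difference 0.11, adjusted p = 0.769).

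The ligand gene Wnt16 differed by 0.14 (SE 0.10, adjusted p = 0.711). Cped1 and Ptprz1, named after their values were seen, had the largest positive differences of the set, 1.16 and 1.12, and both rested on Fezf1-/- replicate 1. Cped1 stood at 9.10 there, at 5.02 and 4.67 on the other Fezf1-/- arrays, and between 4.83 and 5.34 on the Fezf1+/- arrays. Ptprz1 stood at 8.38 there, at 4.98 and 4.82 on the other Fezf1-/- arrays, and between 4.77 and 5.10 on the Fezf1+/- arrays. Without that array their differences were -0.26 and -0.04, and the median of the 10 neighbours was -0.01.

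On chromosome 14, 0 of 10 neighbours of Fezf2 were called by limma, with all 6 arrays or without Fezf1-/- replicate 1, and 0 had an unadjusted p under 0.05 in either fit. Over all genes 0.552% were called with all arrays and 2.66% without that one, while 4.23% were higher and 5.25% lower with an unadjusted p under 0.05 in the first fit, and 7.63% and 8.68% in the second. Oit1 differed by 0.51 (SE 0.21, adjusted p = 0.531) and Cfap20dc by -0.30 (SE 0.15, adjusted p = 0.595). Cadps had a mean of 8.98 ± 0.82 in Fezf1-/- and 9.43 ± 0.14 in Fezf1+/- cells (SD, n = 3 each), with 8.04 on Fezf1-/- replicate 1 and 9.46 and 9.45 on the other Fezf1-/- arrays. Ptprg stood 0.20 lower (SE 0.12, adjusted p = 0.661) in Fezf1-/- cells. The groups did not overlap for Oit1, which was higher in Fezf1-/- cells, or for Ptprg, against 9.72% higher and 8.77% lower of all genes. Sntn, a gene of motile cilia, was at 6.58 on Fezf1+/- replicate 2, the array with lens genes, and between 4.91 and 5.03 on the other 5 arrays.

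**Figure D4:**
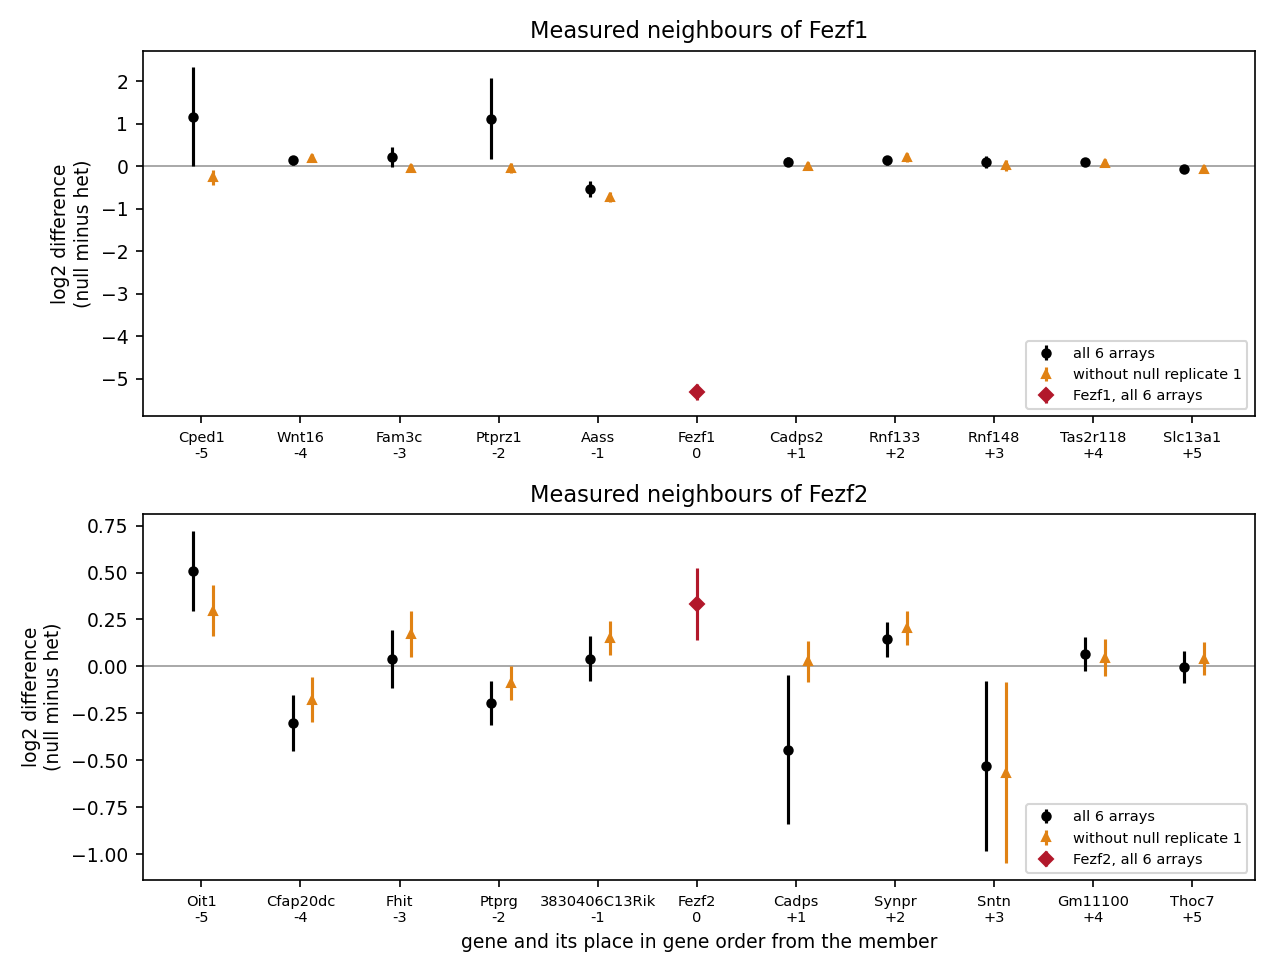
Log2 difference, Fezf1-/- minus Fezf1+/-, with its SE (y axis) for the 5 measured protein-coding genes on each side of Fezf1 (top) and Fezf2 (bottom) in gene order (x axis), with all 6 arrays (black) and without Fezf1-/- replicate 1 (orange). Fezf1 at -5.31 lies far below its neighbours, which run from -0.53 to 1.16 with all arrays, and the bottom panel has a narrower y scale.

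Genes that Fezf1 or Fezf2 are reported to regulate in the forebrain showed 0 called by limma among 22 measured of 24 listed, while 3 had a higher and 1 a lower signal with an unadjusted p under 0.05, against 4.23% and 5.25% of all genes. Their median difference was 0.08, against 0.02 over all genes. Hes5, the target that both factors repress in forebrain progenitors, had 7.48 ± 0.20 in Fezf1-/- and 7.37 ± 0.14 in Fezf1+/- cells (SD, n = 3 each), a difference of 0.11 (95% interval -0.22 to 0.45, adjusted p = 0.805). The proneural gene Neurog2, which is lower in forebrain that lacks both factors, differed by -0.28 (SE 0.13, adjusted p = 0.575), at 4.59 ± 0.03 in Fezf1-/- and 4.87 ± 0.23 in Fezf1+/- cells. Both were named for these reported roles and not for their values. Bcl11b, which acts downstream of Fezf2 in corticospinal neurons, differed by -0.12 (SE 0.34, adjusted p = 0.913).

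The 4 target genes with an unadjusted p under 0.05 were patterning and differentiation genes. Irx3, a homeobox gene, had 5.97 ± 0.14 in Fezf1-/- and 5.45 ± 0.20 in Fezf1+/- cells (difference 0.52, SE 0.14, adjusted p = 0.295). The ligand gene Wnt3a differed by 0.42 (SE 0.12, adjusted p = 0.365) and the paired-box gene Pax6 by 1.01 (SE 0.37, adjusted p = 0.48). Pax6 stood at 8.77, 9.21 and 9.12 on Fezf1-/- replicates 1, 2 and 3 and at 7.52, 8.88 and 7.67 on the Fezf1+/- replicates, and the groups overlapped through Fezf1+/- replicate 2, the array with lens genes. Without that array its difference was 1.44 (SE 0.17, adjusted p = 0.101), and the part of eye tissue in its level was not tested. Lmo4, a LIM-domain cofactor, differed by -0.31 (SE 0.13, adjusted p = 0.516). None of the 22 genes was called without Fezf1-/- replicate 1, where 2.66% of all genes were. There, 4 had a higher and 3 a lower signal with an unadjusted p under 0.05, against 7.63% and 8.68% of all genes.

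Of 7 listed genes of the Groucho (TLE) family, which includes co-repressors that Fezf proteins bind, 6 were measured. By limma 0 of the 6 were called, where 0.552% of all genes were. Whether each of the 6 acts with Fezf proteins was not tested. With an unadjusted p under 0.05, 1 was higher and 1 lower, against 4.23% and 5.25% of all genes. Tle4 had 7.94 ± 0.05 in Fezf1-/- and 7.49 ± 0.10 in Fezf1+/- cells (SD, n = 3 each), which differed by 0.46 (SE 0.09, adjusted p = 0.158). Tle3 had 8.72 ± 0.33 in Fezf1-/- and 9.20 ± 0.07 in Fezf1+/- cells (difference -0.48, SE 0.17, adjusted p = 0.468). The groups did not overlap for 4 of the 6 genes, of which Tle2, Tle4 and Tle6 were higher and Tle3 was lower in Fezf1-/- cells, against 9.72% and 8.77% of all genes. The median of the 6 was 0.11.

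Among 25 other measured zinc-finger factors of neural and olfactory lineages, 1 rose and 0 fell, against 0.0953% and 0.456% of all genes. Zfp521, a partner of the Ebf factors, rose by 1.44 (SE 0.16, adjusted p = 0.0248), at 8.07 ± 0.28 in Fezf1-/- and 6.63 ± 0.10 in Fezf1+/- cells (SD, n = 3 each). It was called without Fezf1-/- replicate 1 (1.28, SE 0.10, adjusted p = 0.00189), where 0.993% of genes were called higher, but not when any other single array was left out. Gfi1b differed by 0.44 (SE 0.08, adjusted p = 0.133), Bcl11a by -0.63 (SE 0.15, adjusted p = 0.222) and Snai1 by 0.29 (SE 0.11, adjusted p = 0.492). The list median was 0.11, and 3 members had a higher and 1 a lower signal with an unadjusted p under 0.05, against 4.23% and 5.25% of all genes.

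**Figure D5:**
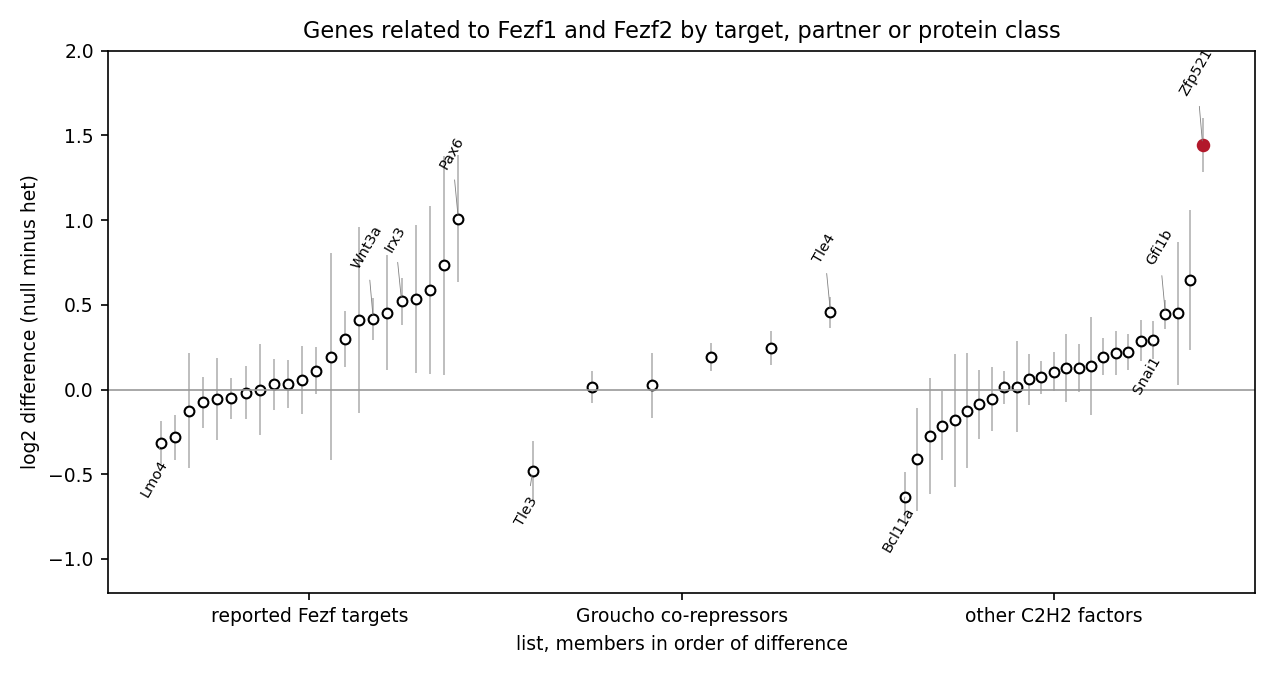
Log2 difference, Fezf1-/- minus Fezf1+/-, with its SE (y axis) for 22 reported Fezf targets, 6 Groucho (TLE) family genes and 25 other zinc-finger factors, labelled as C2H2 (x axis, ordered by difference within each list), with names where the unadjusted p was under 0.05 and a red point where the adjusted p was. Zfp521 at 1.44 is the only red point, and most members lie near 0.

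Markers of cortical projection neurons, the cells best known for Fezf2, did not pass the test with all 6 arrays. Tbr1 stood at 5.95, 6.40 and 7.17 on Fezf1-/- replicates 1, 2 and 3 and at 5.86, 5.86 and 6.44 on the Fezf1+/- replicates (difference 0.45, SE 0.34, adjusted p = 0.711). Its highest value was on Fezf1-/- replicate 3, whereas that of Fezf2 was on Fezf1-/- replicate 2. The glutamate transporter gene Slc17a7 lay between 5.47 and 5.90 on the Fezf1-/- arrays and between 5.71 and 5.93 on the Fezf1+/- arrays. Emx1, a homeobox gene of cortex and olfactory epithelium, differed by 0.66 (SE 0.18, adjusted p = 0.296) and rose by 0.84 (SE 0.12, adjusted p = 0.0183) without Fezf1-/- replicate 1. In that fit 0.993% of all genes were called higher. All 5 measured markers, Fezf2 included, were positive there. Of these, 3 had an unadjusted p under 0.05, namely Fezf2 itself, Tbr1 and Emx1, against 7.63% of all genes that were higher. The count thus contains the Fezf2 value and is no separate evidence about it. With all 6 arrays 3 of the 5 were positive, and 1 had such a p, against 4.23%. The part of cortical cells in the Fezf2 value was not tested.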

How the data were processed

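Total RNA of EGFP-sorted cells, 100 ng a sample, was labelled with biotin and hybridised to Affymetrix 1.0 ST arrays, per the labels' protocols and the series' design text. Per the submitters' processing notes, the authors used Affymetrix Expression Console and GCRMA, and the deposited table holds 1 log2 signal for each probe set and array. Versions, filters and a genome build are not given in the sources used here. Base 2 was inferred from a range of 2.14 to 14.5, since the natural log of a 16-bit reading cannot exceed 11.1. The number of arrays limits the precision.

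Of 35557 probe sets, 21789 had 1 symbol in the 2016 platform annotation, 1621 had several and 12147 were not listed. Symbols were updated by Entrez number to RefSeq, which matched for 21698. Where a gene had several probe sets, that with the highest 6-array mean was kept. The 19938 genes were fitted with limma 3.58.1 in R 4.3.3 (two-sided, Benjamini-Hochberg over all genes, threshold 0.05), without a filter, and the fit was tested on simulated data. In the simulation no array stood apart, so it does not show how the fit behaves with an array like Fezf1-/- replicate 1. An exact test of 3 against 3 cannot go below p = 0.1 and was not run. No label ties a replicate to an embryo, litter or pool, so the p-values reflect only how these samples vary, which may be technical.

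The members and lists were chosen with earlier results of these data known. Genes named are the members, the 5 most like Fezf1, and from each list those past the threshold or else the 2 with the smallest p, and up to 4 with an unadjusted p under 0.05. Outside this rule, Hes5, Neurog2 and Bcl11b were named for their reported roles, Cadps2, Cadps and Ptprg as related neighbours, markers from the marker lists, and Cped1, Ptprz1, Slc13a1, Tas2r118, Sntn, Tle2, Tle6 and the eye genes after their values were seen. The replicate numbers were checked for pairing: deviations from the group means correlated at 0.225, -0.332 and 0.541 between same-numbered arrays. This does not settle whether the numbers pair the samples, and they were not used as pairs in the main fit.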

Additional observations from a re-analysis of the deposited data

How the results depend on the processing

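Fezf1 was called in all 15 alternatives, with differences from -5.49 to -5.13 and adjusted p from 3.92e-05 to 0.0491. Fezf2 was called in none of the 14 that gave it a value, with differences from 0.16 to 0.51, and it had no value among genes above the median mean. The count of all genes called, 110, was 24 with genes above the median mean, 740 with array weights, 8 without moderation and 40 to 531 when 1 array was left out. Array weights gave Fezf1-/- replicate 1 a weight of 0.136. Aass was called with array weights or without Fezf1-/- replicate 1, 1 neighbour of Fezf1 in each and 0 to 1 over the fits that left out an array. No neighbour of Fezf2 was called in any of these alternatives. With array weights, Lmo4 of the targets (1 gene), Tle4 of the Groucho family (1 gene) and Zfp521, Gfi1b and Bcl11a of the other zinc-finger factors (3 genes) were called. Zfp521 was not called without moderation (0 genes of its list), and its list count was 0 to 1 when an array was left out. Of the 8 mature neuron markers, 0 were called with all arrays, 3 without Fezf1-/- replicate 1 and 4 with array weights. The vomeronasal marker Gnai2 was not called without moderation or with the replicate number as a block. The cause of these changes was not tested. By deviations from the group means, Fezf1-/- replicate 1 correlated most with Fezf1+/- replicate 2 (0.373). Fezf1-/- replicate 2 correlated most with Fezf1+/- replicate 3 (0.482), as did Fezf1-/- replicate 3 (0.541), which shares its number. Deviations within a group depend on each other and Fezf1-/- replicate 1 stood apart, so these values cannot decide whether the numbers pair the samples. With the replicate number as a block, 88 genes were called, 0 of them in the list of other zinc-finger factors, and Fezf1 stayed at -5.31 (adjusted p = 0.0131) and Fezf2 at 0.33 (adjusted p = 0.647).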

Other observations

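Among the genes of other organs, 3 that the eye uses stood apart on Fezf1+/- replicate 2, and they are named after their values were seen. Cryaa and Crygd, crystallin genes of the lens, were at 11.42 and 8.14 on that array, while Crygd lay between 2.91 and 3.34 on the other 5. Rbp3, a photoreceptor gene, was at 7.73 on it and between 4.60 and 5.57 on the other 5. Bfsp1 of the lens and Gnat1 of rods were at 5.53 and 4.84 on it, and between 4.88 and 5.44 and between 4.90 and 5.26 on the other arrays. Without Fezf1+/- replicate 2 the Fezf1 difference was -5.36 and that of Fezf2 0.36.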
